A study of Mus musculus with 40 samples.

Results

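The genes described here encode proteins of the mitochondrial ribosome and numbered proteins of the import machinery of mitochondria, measured in mouse bone marrow after cyclophosphamide. The rule for membership was the name, and took all genes on the array whose symbol begins with Mrpl, Mrps, Timm or Tomm followed by a digit. The platform annotation listed 81 such genes on 87 probes, of which 42 were Mrpl, 22 Mrps, 11 Timm and 6 Tomm genes. A gene was tested when at least 3 mice of each of the 4 groups had a value, which left 36 of the 81 (21 Mrpl, 8 Mrps, 3 Timm and 4 Tomm), among 5297 genes and unnamed probes that passed the same filter. All mice were of the inbred strain DBA/2. They formed 4 groups of 5, namely untreated controls and mice killed for marrow on day 1, day 2 or day 5 after 1 intraperitoneal injection of 83 mg/kg cyclophosphamide, and neither age nor sex is stated in the labels. Cyclophosphamide is a prodrug whose metabolites cross-link DNA, and it is used at high doses to deplete dividing marrow cells. Each mouse was measured on 2 arrays that take both dyes with its own RNA in Cy5 and a common reference in Cy3, and the mean of the 2 arrays is the value of a mouse.

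Mitochondria carry their own small genome, and the proteins it encodes are made inside the organelle by a ribosome of its own. That ribosome has a large subunit, whose proteins mostly carry the prefix Mrpl, and a small subunit, whose proteins mostly carry the prefix Mrps. Every one of these proteins is encoded in the nucleus. They and most other mitochondrial proteins therefore enter through the TOM complex of the outer membrane and the TIM complexes of the inner membrane. Dividing blood precursors hold many active mitochondria, while mature neutrophils hold few.

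Values are log2 ratios of the mouse over the common reference, read as base 2, although no label states the base. A positive difference means a higher level in the treated or later group. A difference is given ± its standard error, and a gene is said to have risen or fallen where limma's moderated test passed an adjusted p of 0.05 over all 5297 features. Because whole marrow was measured, fewer cells of a type that is rich in a transcript and less of that transcript per cell cannot be told apart.

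On day 1 more of these genes fell than rose, and on day 2 few of them passed in either direction. The mean over the measured genes was 0.10 ± 0.06 in control mice, -0.11 ± 0.09 on day 1, 0.11 ± 0.05 on day 2 and 0.11 ± 0.10 on day 5 (SD, n = 5 mice each). The mean of a mouse is over the genes with a value in it, 30 to 36, so mice differ in the genes averaged. The 5 means of day 1 ran from -0.27 to -0.03 and those of control from 0.02 to 0.17, without overlap. On day 1, 4 of the 36 genes rose, 10 fell and 22 did not pass. In that comparison 19.1% of all features passed, with 10.7% of all features higher and 8.38% of all features lower. The median difference of the 36 was -0.30, with 28 of 36 below 0, and the median of all features was -0.01.

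On day 2, only 3 of the 36 genes passed against control, 2 higher and 1 lower, where 19.2% of all features passed, 9.61% higher and 9.61% lower. The median of the 36 was -0.02, as was that of all features. The count was 7 without day 1 mouse 1, 5 without day 1 mouse 2 or day 2 mouse 4, and 9 with only the control and day 2 mice in the fit. In those fits 1123 of 5214, 1030 of 4929, 905 of 4801 and 1143 of 5297 features passed, in that order, against 1018 as reported. On day 5, 0 of 36 passed with limma, where 2.62% of all features passed (0.906% higher, 1.72% lower). Across all 4 groups, 20 of the 36 differed by the moderated F test, against 30.7% of all features. The unadjusted p was under 0.05 for 21 genes on day 1 and for 11 on day 2. The heat map sets these 36 genes out by mouse, and the plot of differences gives each with its error.

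**Figure D1:**
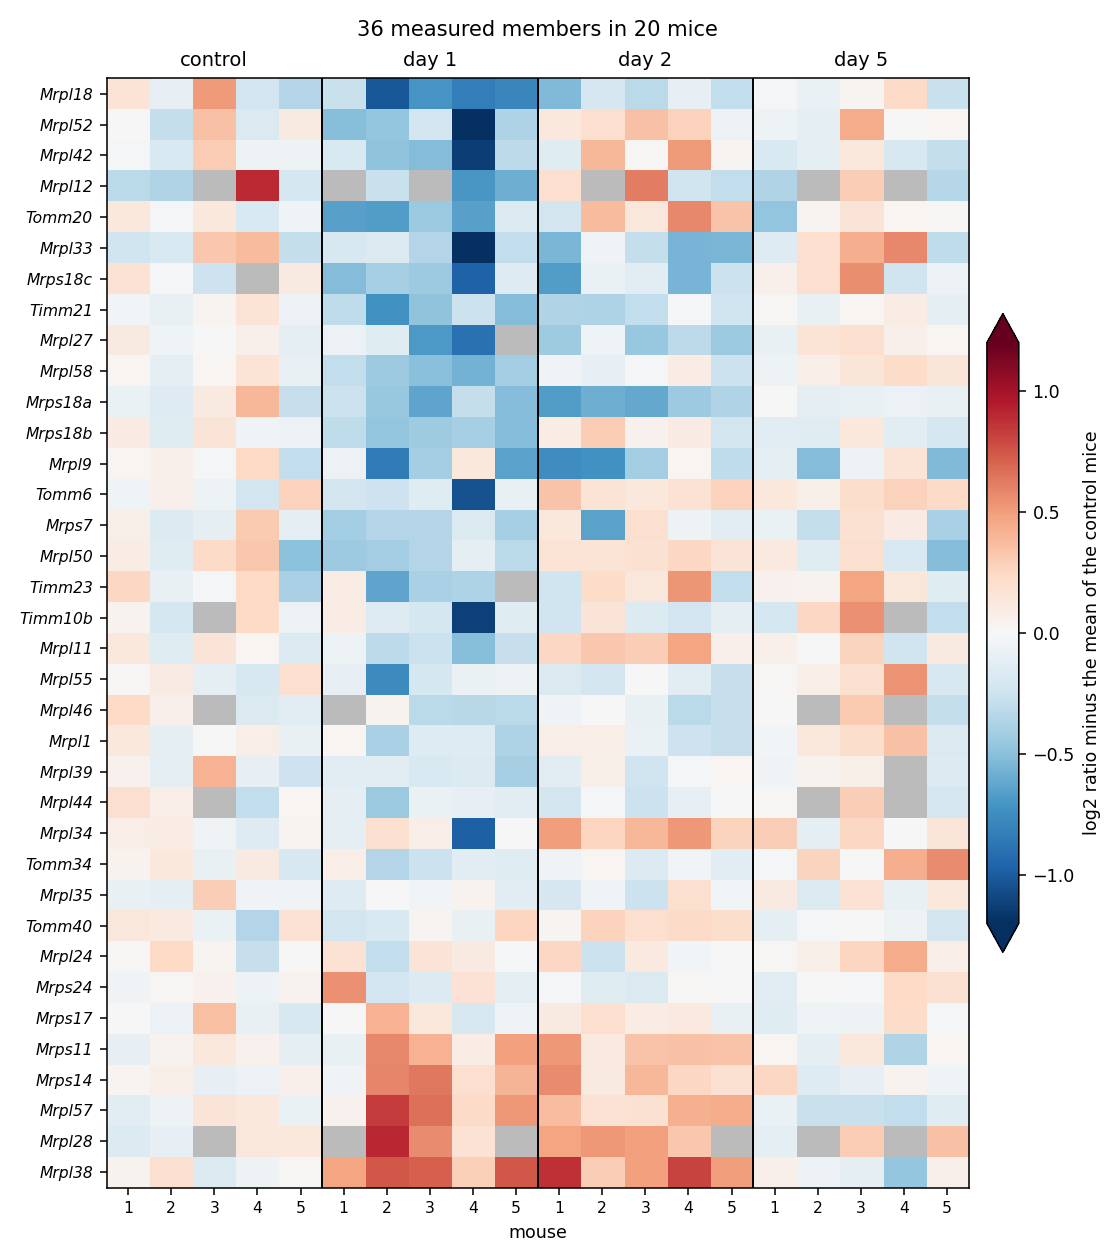
Log2 ratio of each of the 36 measured genes (rows, ordered by the day 1 difference) in each of the 20 mice (columns, by group), minus the mean of the control mice. Grey cells have no value. Most rows are blue on day 1, the lowest 5 rows are mostly red on days 1 and 2, and day 1 mouse 4 has the darkest blue cells.

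**Figure D2:**
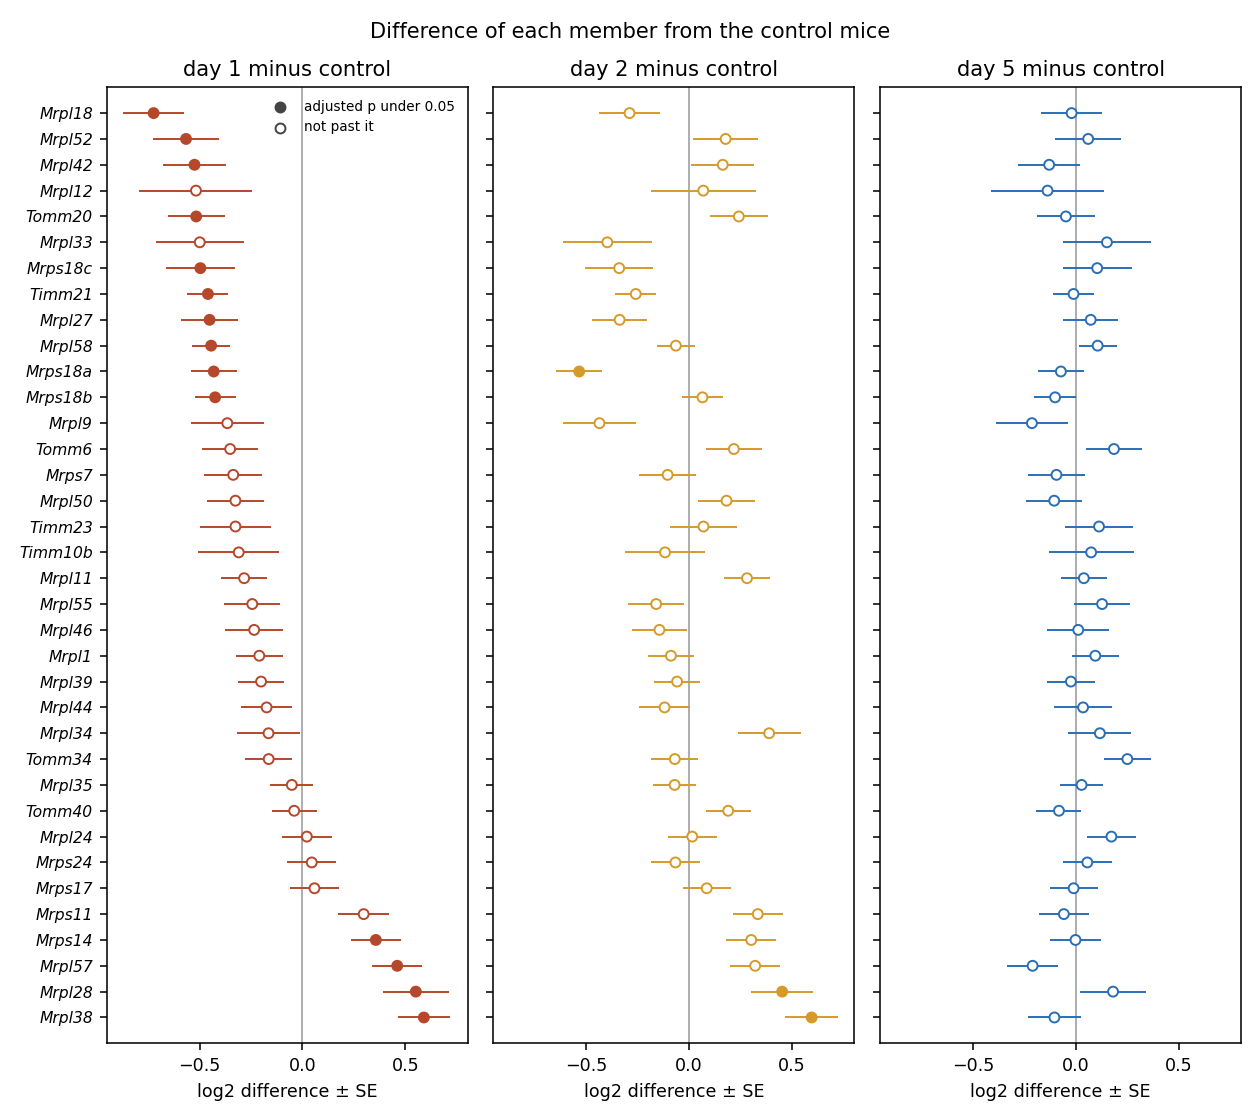
Log2 difference from the control mice ± its standard error for the 36 genes on day 1, day 2 and day 5. Filled points passed an adjusted p of 0.05, which were 14 on day 1, 3 on day 2 and 0 on day 5.

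Before the single genes, 2 features of the libraries bear on them. Day 1 mouse 4 had the lowest mean over these genes (-0.27, the next lowest mouse of day 1 at -0.09). Without it 11 of 34 genes tested passed on day 1 (3 higher, 8 lower), and the median difference was -0.22. In that fit 1020 of 4965 features passed, against 1012 of 5297 with all mice. Over 2979 features present in every mouse, control mouse 4 and day 1 mouse 1 least resembled their groups (mean correlation 0.28 and 0.37). Without both, 16 genes passed on day 1 (5 higher, 11 lower), where 1184 of 5192 features passed. Between 40.7% and 69.7% of probes were blank on an array. The 2 arrays of a mouse differed by a median of 0.03 to 0.14 over the member probes.

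Promoter sequences are shown for the leading genes by the F test, whatever the direction of their change. They come from RefSeq's mouse assembly GRCm38.p6, and each runs from 250 bases before to 50 after the annotated start, 5′ to 3′ on the strand of the gene. Of the 6 genes with the smallest p of the F test, the promoter table held 5. Capitals mark any of 4 short motifs, searched on both strands, namely GCGCANGCG for NRF1, CCGGAAG for the ETS family with GABPA, AAGATGGCG for YY1 and the palindrome CACGTG for E-box factors.
Mrpl58, chr11:115403502-115403801, + strand: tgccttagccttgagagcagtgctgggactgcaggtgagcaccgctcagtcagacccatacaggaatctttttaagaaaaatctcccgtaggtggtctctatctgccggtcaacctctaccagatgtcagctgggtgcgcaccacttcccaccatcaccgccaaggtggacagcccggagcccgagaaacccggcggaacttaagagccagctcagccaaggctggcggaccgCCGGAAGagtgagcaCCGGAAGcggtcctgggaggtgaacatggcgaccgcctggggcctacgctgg
Mrpl57, chr14:57825989-57826288, + strand: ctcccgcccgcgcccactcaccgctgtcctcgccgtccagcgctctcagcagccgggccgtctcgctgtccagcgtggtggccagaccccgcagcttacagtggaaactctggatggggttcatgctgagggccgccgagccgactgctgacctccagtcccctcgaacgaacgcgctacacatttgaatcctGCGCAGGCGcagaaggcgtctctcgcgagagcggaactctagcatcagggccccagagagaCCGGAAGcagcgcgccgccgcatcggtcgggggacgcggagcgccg
Mrps18a, chr17:46110754-46111053, + strand: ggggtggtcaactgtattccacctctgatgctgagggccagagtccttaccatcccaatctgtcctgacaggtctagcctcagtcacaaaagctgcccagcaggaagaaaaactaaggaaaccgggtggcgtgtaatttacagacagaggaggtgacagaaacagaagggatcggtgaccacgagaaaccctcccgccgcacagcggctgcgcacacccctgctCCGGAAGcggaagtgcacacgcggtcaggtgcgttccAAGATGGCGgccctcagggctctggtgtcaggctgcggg
Tomm20, chr8:126945872-126946171, - strand: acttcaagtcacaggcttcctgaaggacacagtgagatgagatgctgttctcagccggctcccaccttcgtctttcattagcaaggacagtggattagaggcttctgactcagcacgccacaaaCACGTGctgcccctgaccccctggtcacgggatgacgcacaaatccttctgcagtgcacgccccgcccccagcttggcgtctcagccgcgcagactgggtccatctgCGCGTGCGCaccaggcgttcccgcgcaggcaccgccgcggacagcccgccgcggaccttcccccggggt
Mrpl18, chr17:12916042-12916341, - strand: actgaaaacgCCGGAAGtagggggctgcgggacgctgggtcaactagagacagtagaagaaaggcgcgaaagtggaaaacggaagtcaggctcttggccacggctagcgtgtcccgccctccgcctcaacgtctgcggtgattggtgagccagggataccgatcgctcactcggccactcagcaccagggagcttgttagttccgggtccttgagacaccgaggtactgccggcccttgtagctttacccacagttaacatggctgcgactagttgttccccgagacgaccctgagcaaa

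NRF1, GABPA and YY1 are factors known to bind promoters of nuclear genes for mitochondrial proteins. In Mrpl58 the ETS letters occurred at both -17 and -2 from the start. Mrpl57 held the NRF1 letters at -57 and the ETS letters at 4, and Mrps18a held ETS letters at -26 and YY1 letters at 11. Tomm20 held the NRF1 letters at -19 and the E-box at -126, and Mrpl18 held ETS letters at -240 alone.

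Promoters were found for 34 of the 36 measured genes, 35 promoters in all, and 23 of these (65.7%) held at least 1 of the 4 motifs, against 20.3% of the 32851 promoters of the table. The ETS letters were in 14 of 35 (40%), against 8.86% of all promoters. The NRF1 letters were in 7 (20%, against 6.25%), the YY1 letters in 5 (14.3%, against 1.4%) and the E-box in 2 (5.71%, against 7.15%). No pair of different motifs overlapped in a member promoter. Median GC content was 59% in the member promoters and 52.7% in all promoters, and its part in these shares was not tested. All promoters of the table include those of genes that did not pass the filter for values. The part of that filter in these shares was not tested either. By day 1 call, the ETS letters were in 7 of the 9 genes with a promoter that fell on day 1 (Mrpl18, Mrpl27, Mrpl52, Mrpl58, Mrps18a, Mrps18b and Mrps18c), in 1 of 3 that rose (Mrpl57) and in 5 of the 22 not called. The NRF1 letters were in 2 of the 9 that fell, 1 of the 3 that rose and 4 of the 22 not called. The YY1 letters were in 2 of 9, 0 of 3 and 3 of 22, and the E-box in 2 of 9, 0 of 3 and 0 of 22. At least 1 of the 4 motifs was in 9 of 9, 1 of 3 and 12 of 22. These are counts of letters, with no test of a difference, and no binding was measured.

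The genes that rose on day 1 were 3 of the large subunit, Mrpl38, Mrpl28 and Mrpl57, and Mrps14 of the small subunit. Mrpl38 had the smallest p of the group across the 4 groups (adjusted p = 9.92e-05). It stood at -0.13, 0.02, -0.34, -0.23 and -0.16 in control mice, at 0.31, 0.57, 0.55, 0.11 and 0.57 on day 1, at 0.71, 0.13, 0.33, 0.64 and 0.33 on day 2, and at -0.11, -0.23, -0.28, -0.63 and -0.10 on day 5. Every mouse of days 1 and 2 was above every control mouse and every mouse of day 5. Its rise was 0.59 ± 0.13 on day 1 (1.51-fold, adjusted p = 0.00328) and 0.60 ± 0.13 on day 2 (1.51-fold, adjusted p = 0.00256). It was lower on day 5 than on day 2 (-0.70 ± 0.13, adjusted p = 0.000403), and on day 5 it differed from control by -0.10 ± 0.13.

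Mrpl57, also of the large subunit, stood at -0.14, -0.07, 0.15, 0.12 and -0.09 in control mice, at 0.05, 0.84, 0.66, 0.23 and 0.51 on day 1, at 0.36, 0.17, 0.18, 0.42 and 0.44 on day 2, and at -0.08, -0.27, -0.27, -0.30 and -0.15 on day 5. All 5 mice of day 2 were above the control mice, while day 1 mouse 1 lay within the control range. The day 1 rise was 0.46 ± 0.12 (1.38-fold, adjusted p = 0.0118), the day 2 difference of 0.32 ± 0.12 missed the threshold (adjusted p = 0.0676), and day 5 was lower than day 2 by -0.53 ± 0.12 (adjusted p = 0.003).

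Mrpl28 was measured in 4 control mice, 3 mice of day 1, 4 of day 2 and 3 of day 5. It rose by 0.55 ± 0.16 on day 1 (adjusted p = 0.025) and by 0.45 ± 0.15 on day 2 (adjusted p = 0.042). Mrps14 rose by 0.36 ± 0.12 on day 1 (adjusted p = 0.0419), and its day 2 difference was 0.30 ± 0.12. Its small-subunit neighbour in this pattern, Mrps11, differed by 0.30 ± 0.12 on day 1 and 0.33 ± 0.12 on day 2 without passing, and was lower on day 5 than on day 2 by -0.39 ± 0.12 (adjusted p = 0.024). The call of Mrps14 was lost when any 1 control mouse or day 1 mouse 2, 3 or 5 was left out, and that of Mrpl28 on day 1 without control mouse 1 or 2.

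The 10 genes that fell on day 1 came from all 4 families. They were Mrpl18, Mrpl52, Mrpl42, Mrpl27 and Mrpl58 of the large subunit, Mrps18a, Mrps18b and Mrps18c, the import receptor gene Tomm20, and Timm21. Mrpl18, a protein of the large subunit, had the largest fall of the 10. Its values were 0.29, 0.02, 0.63, -0.12 and -0.23 in control mice, -0.15, -0.90, -0.59, -0.72 and -0.66 on day 1, -0.41, -0.08, -0.21, 0.02 and -0.18 on day 2, and 0.10, 0.04, 0.15, 0.35 and -0.15 on day 5. It changed by -0.72 ± 0.15 on day 1 (1.65-fold lower, adjusted p = 0.00235), and only day 1 mouse 1 reached into the control range. The day 2 difference was -0.29 ± 0.15 (adjusted p = 0.18), and day 5 was higher than day 1 by 0.70 ± 0.15 (adjusted p = 0.00129).

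Mrpl58, also known as Ict1, is a peptidyl-tRNA hydrolase built into the large subunit that releases stalled chains. It stood at 0.20, 0.06, 0.21, 0.34 and 0.09 in control mice, at -0.11, -0.26, -0.32, -0.39 and -0.23 on day 1, at 0.14, 0.08, 0.17, 0.27 and -0.08 on day 2, and at 0.12, 0.26, 0.33, 0.40 and 0.33 on day 5. The mice of day 1 lay below all mice of the other 3 groups. The change was -0.44 ± 0.09 on day 1 (1.36-fold lower, adjusted p = 0.00247), and day 2 was above day 1 by 0.38 ± 0.09 (adjusted p = 0.0252). Its 2 probes gave -0.33 and -0.56 on day 1. Day 5 exceeded day 1 by 0.55 ± 0.09 (adjusted p = 0.000145). The call between days 1 and 2 was lost in 7 of 34 alternative settings, among them leaving out day 1 mouse 3 or 4.

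Mrpl52 and Mrpl42, both of the large subunit, fell on day 1 and rose between days 1 and 2. Mrpl52 stood at 0.13, -0.16, 0.48, -0.05 and 0.23 in control mice, at -0.38, -0.33, -0.10, -1.14 and -0.24 on day 1, at 0.26, 0.33, 0.48, 0.40 and 0.06 on day 2, and at 0.07, 0.02, 0.57, 0.12 and 0.15 on day 5. Mrpl42 stood at 0.26, 0.09, 0.58, 0.22 and 0.22 in control mice, at 0.09, -0.21, -0.24, -0.85 and -0.03 on day 1, at 0.13, 0.67, 0.29, 0.79 and 0.31 on day 2, and at 0.09, 0.16, 0.40, 0.08 and -0.01 on day 5. In both genes day 1 mouse 4 was the lowest of the 20 mice, and the day 1 and day 2 mice did not overlap. Mrpl52 changed by -0.57 ± 0.16 on day 1 (adjusted p = 0.017), and by -0.39 without mouse 4 (adjusted p = 0.0400). Mrpl42 changed by -0.52 ± 0.15 (adjusted p = 0.0194), and by -0.37 without mouse 4, where the call was lost (adjusted p = 0.0509). From day 1 to day 2 the differences were 0.74 ± 0.16 for Mrpl52 (adjusted p = 0.0104) and 0.69 ± 0.15 for Mrpl42 (adjusted p = 0.012). Mrpl27 was measured in 4 mice of day 1 and changed by -0.45 ± 0.14 (adjusted p = 0.0283), and by -0.30 without mouse 4 (adjusted p = 0.110). Without control mouse 3 the day 1 calls of Mrpl52 and Mrpl42 were lost, and without control mouse 1, control mouse 4 or day 1 mouse 3 that of Mrpl27 was.

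The 3 paralogs Mrps18a, Mrps18b and Mrps18c descend from 1 bacterial ribosomal protein, and in mammals each product has its own place on the ribosome, that of Mrps18a being on the large subunit. All 3 fell on day 1. Mrps18a stood at -0.12, -0.19, 0.08, 0.36 and -0.31 in control mice, at -0.29, -0.49, -0.67, -0.32 and -0.55 on day 1, at -0.70, -0.62, -0.65, -0.47 and -0.40 on day 2, and at -0.04, -0.15, -0.12, -0.11 and -0.13 on day 5. It was the only one of the 36 genes called lower on day 2, when all 5 mice lay below every control mouse. The changes were -0.43 ± 0.11 on day 1 (adjusted p = 0.0108) and -0.53 ± 0.11 on day 2 (1.45-fold lower, adjusted p = 0.00224), and day 5 was above day 2 by 0.46 ± 0.11 (adjusted p = 0.00474).

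Mrps18b stood at 0.41, 0.17, 0.47, 0.27 and 0.24 in control mice, at 0.00, -0.16, -0.11, -0.08 and -0.20 on day 1, at 0.40, 0.62, 0.37, 0.41 and 0.09 on day 2, and at 0.18, 0.17, 0.44, 0.18 and 0.10 on day 5. All day 1 mice lay below the mice of the other groups. It changed by -0.42 ± 0.10 on day 1 (adjusted p = 0.00571) and rose between day 1 and day 2 by 0.49 ± 0.10 (adjusted p = 0.00837). Mrps18a differed between the same days by -0.10 ± 0.11, and the difference between the paralogs was not tested. Mrps18c, with 4 control mice, changed by -0.50 ± 0.17 on day 1 (adjusted p = 0.0399), and by -0.38 without day 1 mouse 4 (adjusted p = 0.0965). That call was also lost without control mouse 1, 2 or 5 or day 1 mouse 2 or 3. Its day 2 difference was -0.34 ± 0.17, and day 5 exceeded day 2 by 0.44 ± 0.16 (adjusted p = 0.0476).

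**Figure D3:**
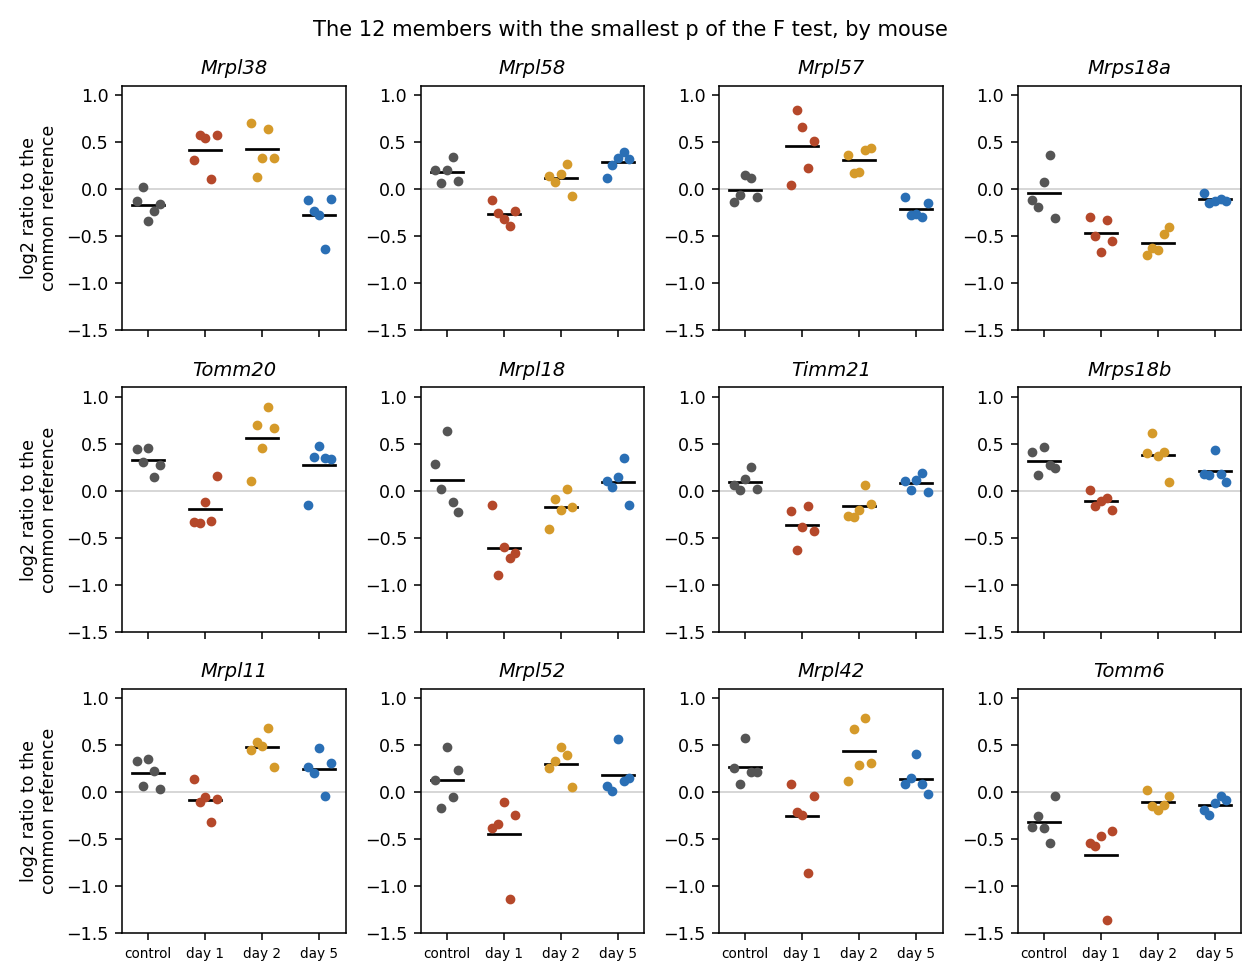
Log2 ratio to the common reference in each mouse (points) with the group mean (bar) for the 12 genes with the smallest p of the F test. Mrpl38 and Mrpl57 are high on days 1 and 2, Mrps18a is low on both, and most of the others are low on day 1 alone.

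In the import machinery, the outer membrane gene Tomm20 and the inner membrane gene Timm21 fell on day 1. Tomm20 is the receptor that first recognises the presequence of an incoming protein. It stood at 0.45, 0.31, 0.45, 0.15 and 0.27 in control mice, at -0.33, -0.34, -0.12, -0.33 and 0.15 on day 1, at 0.11, 0.70, 0.46, 0.90 and 0.67 on day 2, and at -0.15, 0.36, 0.48, 0.35 and 0.34 on day 5. It changed by -0.52 ± 0.14 on day 1 (1.43-fold lower, adjusted p = 0.013), with day 1 mouse 5 at the edge of the control range. From day 1 to day 2 it rose by 0.76 ± 0.14 (1.69-fold, adjusted p = 0.00479), the largest such rise among the 36 genes, and its day 2 level differed from control by 0.24 ± 0.14 (adjusted p = 0.24).

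Timm21 is the subunit that lets the TIM23 complex, the inner membrane's presequence channel, dock to the TOM complex. It stood at 0.06, 0.01, 0.13, 0.26 and 0.02 in control mice, at -0.21, -0.63, -0.39, -0.16 and -0.43 on day 1, at -0.27, -0.28, -0.20, 0.07 and -0.14 on day 2, and at 0.11, 0.01, 0.12, 0.19 and -0.01 on day 5. All day 1 mice lay below all control mice. It changed by -0.46 ± 0.10 on day 1 (adjusted p = 0.00331), where its 2 probes differed by -0.51 and -0.41, and by -0.26 ± 0.10 on day 2 (adjusted p = 0.0696).

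Timm23 itself, the channel subunit, stood at 0.46, 0.12, 0.19, 0.45 and -0.17 in control mice, at 0.30, -0.42, -0.18 and -0.16 in the 4 measured mice of day 1, at -0.03, 0.43, 0.34, 0.74 and -0.09 on day 2, and at 0.26, 0.26, 0.68, 0.35 and 0.06 on day 5. Control and day 1 overlapped, and the difference of -0.33 ± 0.17 did not pass (adjusted p = 0.197). Timm10b, of the small TIM proteins that escort carriers across the space between the membranes, differed by -0.31 ± 0.20 on day 1, and day 1 mouse 4 was its lowest mouse.

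Tomm6 is a small subunit that stabilises the TOM complex. It stood at -0.37, -0.25, -0.38, -0.53 and -0.04 in control mice, at -0.54, -0.57, -0.46, -1.36 and -0.41 on day 1, at 0.03, -0.15, -0.19, -0.14 and -0.04 on day 2, and at -0.19, -0.24, -0.11, -0.03 and -0.08 on day 5. Its day 1 difference of -0.35 ± 0.14 missed the threshold (adjusted p = 0.0733), while day 2 was above day 1 by 0.57 ± 0.14 (adjusted p = 0.0241) with no overlap of the mice. One array of control mouse 2 held a Tomm6 value that looked saturated. Tomm40, the channel of the TOM complex, differed from control by -0.04 ± 0.11, 0.19 ± 0.11 and -0.08 ± 0.11 on days 1, 2 and 5, and passed in no comparison. Tomm34, a cytosolic co-chaperone of precursors and not a subunit of the channel, differed by -0.16 ± 0.11 on day 1 and 0.25 ± 0.11 on day 5, and was higher on day 5 than on day 1 by 0.41 ± 0.11 (adjusted p = 0.01).

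Between days 1 and 2, 7 of the 36 genes rose and 0 fell, where 2.1% of all features passed (1.36% higher, 0.736% lower). They were Mrpl11, Mrpl42, Mrpl52, Mrpl58, Mrps18b, Tomm20 and Tomm6. With only the mice of these 2 days in the fit, 4 of the 7 calls were kept, and those of Mrpl42, Mrpl58 and Tomm6 were lost. In that fit 65 of 5297 features passed, against 111 as reported. Mrpl11 belongs to the base of the stalk where translation factors land, and had not passed against control on either day. It stood at 0.34, 0.06, 0.36, 0.23 and 0.04 in control mice, at 0.15, -0.11, -0.05, -0.31 and -0.07 on day 1, at 0.45, 0.53, 0.50, 0.68 and 0.27 on day 2, and at 0.27, 0.20, 0.47, -0.04 and 0.31 on day 5. The mice of day 2 lay above all mice of day 1, with a difference of 0.56 ± 0.11 (adjusted p = 0.00642). Against control it differed by -0.28 ± 0.11 on day 1 and 0.28 ± 0.11 on day 2.

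From day 2 to day 5, 4 genes rose (Mrpl27, Mrps18a, Mrps18c and Tomm34) and 3 fell (Mrpl38, Mrpl57 and Mrps11), where 20.8% of all features passed (10.3% higher, 10.5% lower). Of the risers, Mrpl27 differed by 0.41 ± 0.13 and Tomm34 by 0.32 ± 0.11. The call of Tomm34 was lost in 20 of 34 alternative settings and that of Mrps18c in 15 of 33, most of them leaving out 1 mouse. The count of 7 was 4 without day 2 mouse 1, day 2 mouse 5 or day 5 mouse 2. In those fits 816 of 5242, 1107 of 4827 and 926 of 4903 features passed, in that order, against 1102 as reported. Between day 1 and day 5, 14 of the 36 rose and 4 fell, where 25.3% of all features passed (12.2% higher, 13.1% lower). The median difference was 0.31, against 0.02 over all features. The 4 that fell were Mrpl38, Mrpl57, Mrps11 and Mrps14. Beside genes already given, the 14 included Mrpl33 (0.65 ± 0.22, adjusted p = 0.0291) and Mrpl55 (0.37 ± 0.14, adjusted p = 0.0466), both of the large subunit. The call of Mrpl55 was lost in 16 of 34 settings and that of Mrpl33 in 6 of 34. Comparisons that share the day 1 mice are not independent of each other.

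By sign, 17 of the 36 genes were below control on both day 1 and day 2, 7 were above on both, 11 were below on day 1 and above on day 2, and 1 did the opposite, whether or not they passed. By calls, Mrpl38 and Mrpl28 were higher on both days, Mrps18a was lower on both, 2 genes were higher and 9 lower on day 1 alone, and 22 had no call against control. These 2 comparisons share the control mice. The mice of day 1 did not overlap the control mice in 7 of the 36 genes (2 above, 5 below), as in 13% of all features. On day 2 this held for 6 genes (5 above, 1 below), against 19.0%, and on day 5 for 0, against 6.34%. Mrpl34 was among those of day 2, at 0.39 ± 0.15 against control without passing (adjusted p = 0.0788).

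The remaining genes moved less or were measured with more scatter. Mrpl50 and Mrpl34 passed the F test but no single comparison, and Mrpl50 differed by -0.33 ± 0.14 on day 1. Against control on day 1, Mrpl12 of the stalk differed by -0.52 ± 0.27 (4 control and 3 day 1 mice, with probes at -0.20 and -0.53), Mrpl33 by -0.50 ± 0.22, Mrpl9 by -0.37 ± 0.18 and Mrps7 by -0.34 ± 0.14. Smaller differences were those of Mrpl55 (-0.24 ± 0.14), Mrpl46 (-0.23 ± 0.14), Mrpl1 (-0.21 ± 0.11), Mrpl39 (-0.20 ± 0.11) and Mrpl44 (-0.17 ± 0.12). Those of Mrpl34 (-0.16 ± 0.15), Mrpl35 (-0.05 ± 0.11), Mrpl24 (0.02 ± 0.12), Mrps24 (0.05 ± 0.12) and Mrps17 (0.06 ± 0.12) were smallest. The 2 measured probes of Mrpl24 pointed in opposite directions (0.14 and -0.09). In all, 14 of the 36 genes passed in no pairwise comparison. A miss does not show that a level stayed the same, since the median standard error of a day 1 difference was 0.13.

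No value was present in any mouse for 19 genes, namely Mrpl23, Mrpl30, Mrpl40, Mrpl45, Mrpl48, Mrpl54, Mrps9, Mrps15, Mrps22, Mrps30, Mrps31, Mrps33, Mrps36, Timm8a1, Timm10, Timm13, Timm17a, Timm44 and Tomm70a. Another 26 had values in too few mice. Values were present in 1 of the 20 mice for Mrpl4, Mrpl47, Mrps5, Mrps6, Mrps16 and Timm22, in 2 for Mrpl16 and Timm17b, in 3 for Mrps12 and Tomm7, in 4 for Mrpl10 and Mrpl13, in 5 for Mrpl43, in 6 for Mrpl2 and in 7 for Mrpl32. They were present in 8 mice for Mrpl17, Mrpl51 and Mrpl53, in 9 for Mrps25 and Timm8b, in 10 for Mrpl20 and Mrps34, in 11 for Mrps28, in 12 for Mrpl19 and Mrpl21, and in 13 for Mrpl49. The import motor scaffold Timm44, the carrier translocase Timm22 and the receptor Tomm70a are therefore not described, and a blank is no sign of absence, since no label states the rule for blanks.

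By family, 3 of 21 Mrpl genes rose and 5 fell on day 1 (median -0.24), 1 of 8 Mrps genes rose and 3 fell (median -0.15), 1 of 3 Timm genes fell (median -0.33) and 1 of 4 Tomm genes fell (median -0.26). All 3 Timm and all 4 Tomm differences were below 0 on day 1, whether or not they passed. Between day 1 and day 2, 2 of 4 Tomm genes rose, against 4 of 21 Mrpl, 1 of 8 Mrps and 0 of 3 Timm genes. Of all features, 10.7% were called higher and 8.38% lower on day 1, and 1.36% were called higher on day 2 than on day 1. No test was made of a difference between the families.

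Both neighbouring gene sets of the series were lower on day 1 too. Of 34 measured subunits of the respiratory chain and ATP synthase, 0 rose and 20 fell on day 1 (median -0.52), and of 25 cytosolic ribosomal proteins 0 rose and 10 fell (median -0.52), against 4 and 10 of the 36 described here (median -0.30). On day 2 the counts were 0 higher and 2 lower (median -0.11) for the respiratory chain, and 0 and 0 (median 0.07) for cytosolic ribosomal proteins. From day 1 to day 2, 7 of 34 respiratory chain genes rose and 0 fell (median 0.38). Of 25 cytosolic ribosomal proteins 1 rose and 0 fell (median 0.50), against 7 and 0 of the 36 described here (median 0.13). Day 1 mouse 4 had the lowest mean in each of the 3 sets (-0.27, -0.73 and -0.84). No test was made of a difference between the sets, and the medians of the 3 sets come from the same mice.

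**Figure D4:**
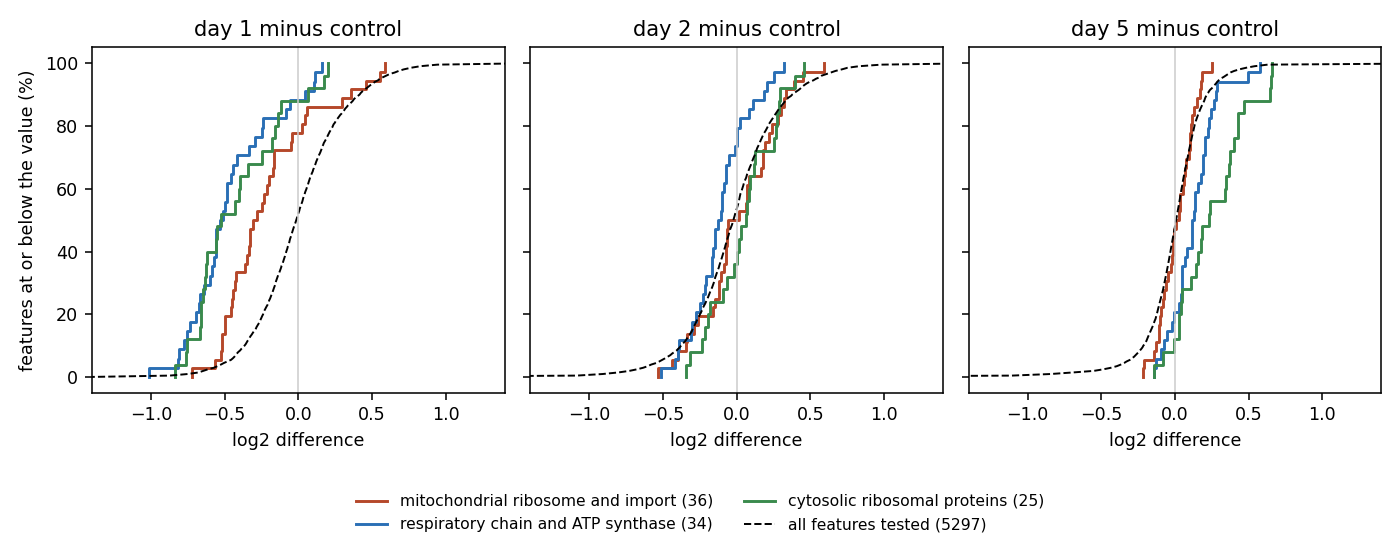
Cumulative share of genes (percent, vertical axis) at or below a given log2 difference from control on days 1, 2 and 5, for the 36 genes described, 34 respiratory chain and ATP synthase genes, 25 cytosolic ribosomal proteins and all 5297 features. On day 1 the curves of the 3 sets lie mostly left of all features, and the upper end of the 36 genes, with the 4 that rose, reaches the curve of all features.

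**Figure D5:**
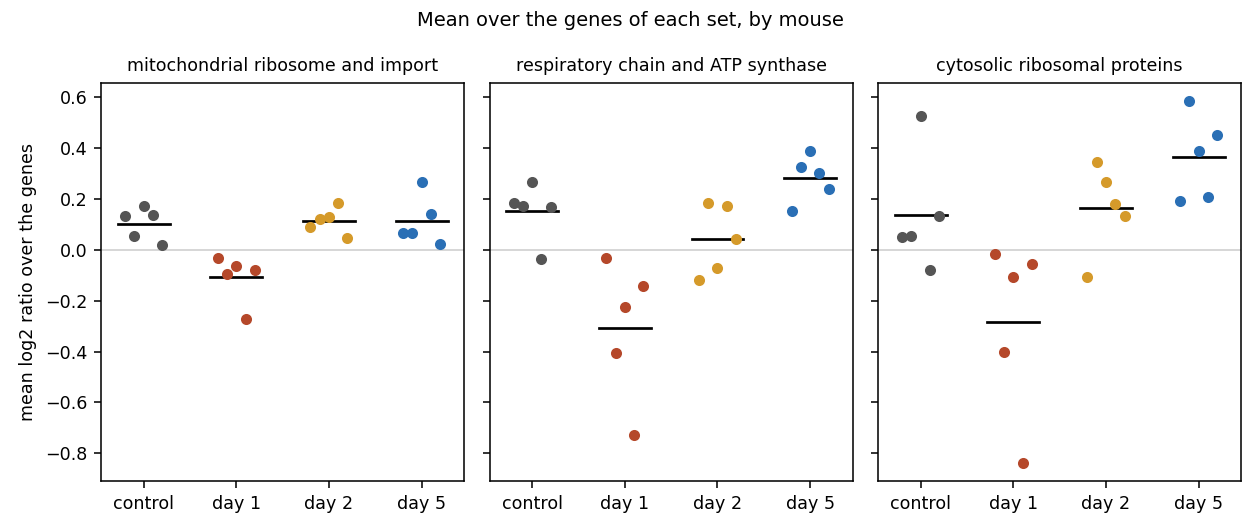
Mean log2 ratio over the genes of each set that have a value in the mouse (points) with the group mean (bar). All 3 sets are lowest on day 1, and the lowest point of day 1 is mouse 4 in each.

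Other proteins of the same pathways were measured in small numbers, and their counts stand beside a background of 19.1% of all features called on day 1 and 19.2% on day 2. Of 2 further mitoribosomal proteins measured, 0 passed against control on any day, and Chchd1 of the small subunit was higher on day 5 than on day 1 by 0.57 ± 0.19 (adjusted p = 0.0293). Of 4 assembly factors, 1 rose on day 1 and 2 rose on day 2. Eral1, a GTPase that chaperones the small subunit's RNA, rose by 0.33 ± 0.11 on day 1 (adjusted p = 0.0351) and by 0.38 ± 0.11 on day 2 (adjusted p = 0.0149), and the helicase Ddx28 rose by 0.29 ± 0.09 on day 2 (adjusted p = 0.0324). Of 3 mitochondrial tRNA synthetases 1 rose on both days, Fars2, which charges phenylalanine tRNA (0.66 ± 0.13 and 0.43 ± 0.12, adjusted p = 0.00216 and 0.0193). The single translation factor measured, Mtif3, an initiation factor, differed by 0.15 ± 0.15 on day 1.

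Of 7 further import genes, 0 passed against control on any day. Grpel1, the nucleotide exchange factor of the import motor, was higher on day 5 than on day 1 by 0.49 ± 0.13 (adjusted p = 0.0083), as was Mtx2 of the outer membrane (0.36 ± 0.13, adjusted p = 0.0479), and the motor chaperone Hspa9 was lower on day 5 than on day 2 by -0.47 ± 0.16 (adjusted p = 0.0442). None of the 4 proteases and processing genes measured passed in any of the 6 comparisons, and the lowest F p among them was that of Yme1l1 (adjusted p = 0.126). Of 3 genes for mitochondrial DNA and its transcripts, Polg, the DNA polymerase of mitochondria, rose by 0.51 ± 0.13 on day 1 (adjusted p = 0.0112) and 0.44 ± 0.13 on day 2 (adjusted p = 0.0245), and Lrpprc, which stabilises mitochondrial mRNA, was lower on day 5 than on day 2 (-0.43 ± 0.12, adjusted p = 0.0148). Of 2 regulators of biogenesis measured, Yy1 and Myc, 0 passed in any comparison, and Myc differed by -0.01 ± 0.17 on day 1. Of 3 outer membrane and matrix genes 1 fell on day 1, citrate synthase Cs (-0.55 ± 0.17, adjusted p = 0.0303). All 3 were higher on day 5 than on day 1, with Vdac1 at 0.64 ± 0.17 and Idh3a at 0.41 ± 0.14.

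Genes of cell division and of many marrow cell types also differed from control. The days on which they did so varied from list to list. On day 1, 6 of 10 mitosis genes and 6 of 9 DNA replication genes fell and 0 rose, and on day 2, 7 of 10 and 3 of 9 fell, among them Cks2 (-1.17 ± 0.21 on day 1) and Pcna (-0.92 ± 0.13). Ect2, Tpx2, Cdk1, Mcm4, Dut and Tyms also fell on day 1. Granulocyte precursor genes fell on day 1 in 2 of 2 cases, Prtn3 and Plac8, with mouse means of the list from -0.95 to 0.18 on day 1 and from 0.23 to 0.82 in control, and 2 of 3 monocyte genes (F13a1 and Ms4a6c) and 2 of 2 B cell precursor genes (Vpreb1 and Vpreb3) fell. In other lists, 2 of 5 macrophage genes (Adgre1 and C1qb), 2 of 3 mature B cell genes (Cd22 and H2-Aa), 2 of 4 endothelial genes (Plvap and Flt1), 1 of 3 stromal genes (Fstl1), 1 of 3 megakaryocyte genes (Ppbp), 1 of 6 late neutrophil genes (Csf3r) and 1 of 7 erythroid genes (Alas2) rose, all on day 1, and 0 of 2 T and NK cell genes passed (Nkg7 at -0.30 ± 0.15 and Klrd1 at 0.01 ± 0.13). Of the erythroid genes 5 of 7 were below 0 on day 1 (median -0.37), and of the late neutrophil genes 4 of 6 (median -0.21), with 0 called lower in either list that day.

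The mouse means of the granulocyte precursor list given above, each over the genes with a value, did not overlap between day 1 and control. The same held, on the lower side, for monocytes (-0.69 to -0.26 on day 1, -0.21 to 0.53 in control), B cell precursors (-1.03 to -0.09 on day 1, -0.08 to 0.56 in control), mitosis (-0.78 to -0.27 on day 1, -0.07 to 0.26 in control) and DNA replication (-0.76 to -0.31 on day 1, -0.04 to 0.20 in control). On the higher side it held for macrophages (0.37 to 0.80 on day 1, -0.39 to 0.20 in control), stroma (0.43 to 0.74 on day 1, -0.25 to -0.08 in control), endothelium (0.27 to 0.61 on day 1, -0.19 to -0.08 in control) and mature B cells (0.41 to 0.92 on day 1, -0.27 to -0.01 in control). On day 2 all 5 macrophage genes were higher. That day 4 of 6 late neutrophil genes (Ltf, Ngp, Cd177 and S100a9) and 3 of 7 erythroid genes (Ank1, Rhd and Kel) were lower. On day 5, 3 of 3 mature B cell genes (median -1.34) and 2 of 2 B cell precursor genes (median -1.42) were lower. So were 2 of 6 late neutrophil genes (Mmp9 and Csf3r). Higher on day 5 were 2 of 3 monocyte genes (F13a1 and Ms4a6c) and 1 of 2 granulocyte precursor genes (Prtn3). In the other cell type lists and those of cell division 0 passed on day 5. Marker genes blank in every mouse were Mpo, S100a8, Mmp8, Ccr2, Epb42, Slc4a1, Dntt, Cd79a, Cd79b, Cr2, Cd3e, Gzma, Gp1bb, Gp9 and Sparc, so the labelled tissue was checked only on the markers named above. The part of these shifts in the mitochondrial ribosome and import results was not tested.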

How the data were processed

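Per the labels' protocols, marrow RNA of each mouse was amplified, labelled with Cy5 and hybridised against a Cy3 reference, which the labels call a pool of untreated marrow although its treatment field names cyclophosphamide. The reference cancels in differences between groups. The deposited values, 1 for each probe of an array, were read as log2 of sample over reference. The sources used here do not give the base, scanner, background correction, normalization or blank rule. The array medians lie within 0.0151 of 0, and of 780 pairs of arrays the lowest correlation was -0.175. An array gave 4079 to 7977 of 13443 values, and precision rests on 5 mice per group.

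The 2 arrays of a mouse were averaged, then probes with the same symbol. No value was filled in. A model with 1 mean per group was fitted to 5297 features in limma 3.58.1 under R 4.3.3, with Benjamini-Hochberg adjustment over all of them, and the steps were tested on simulated data. Members and gene lists were chosen with earlier results of these data known. Named in the text were all tested members, single mice for the 12 with the smallest F p and the first 2 of each family, and up to 4 passing genes of other lists, or the one with the smallest p. P-values measure the spread between mice that the labels call biological replicates. On 30 arrays, 557 values (0.236%) looked saturated, sharing 1 value to within 0.001.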

Additional observations from a re-analysis of the deposited data

Results flagged for a closer look

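Of 142 groups of mice examined gene by gene, 17 held a mouse far from the others, where chance alone gives about 1 in 20. Day 1 mouse 4 stood apart 7 times. It was low in Mrpl33 (-1.04), Mrpl34 (-1.03), Mrpl52 (-1.14), Timm10b (-0.81), Tomm6 (-1.36) and the mean over the 36 genes (-0.27), and high in Mrps7 (-0.0485). Day 1 mouse 2 was low in Mrpl44 (-0.28) and Mrpl55 (-0.85) and high in Mrpl46 (0.23), and day 1 mouse 5 was low in Mrpl39 (-0.14). Day 2 mouse 4 was high in Mrpl50 (0.20). Day 5 mouse 3 was high in Mrpl52 (0.57) and Mrps18b (0.44), and day 5 mouse 1 was low in Tomm20 (-0.15). In the control group, mouse 4 was high in Mrpl12 (1.30) and mouse 3 in Mrpl35 (0.20).

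A difference between treated days was tested and passed in limma for 32 pairs of gene and days. Day 2 exceeded day 1 in Mrpl11 (0.56), Mrpl42 (0.69), Mrpl52 (0.74), Mrpl58 (0.38), Mrps18b (0.49), Tomm20 (0.76) and Tomm6 (0.57). Day 5 was above day 2 in Mrpl27 (0.41), Mrps18a (0.46), Mrps18c (0.44) and Tomm34 (0.32), and below it in Mrpl38 (-0.70), Mrpl57 (-0.53) and Mrps11 (-0.39). Day 5 was above day 1 in Mrpl11 (0.32), Mrpl18 (0.70), Mrpl27 (0.52), Mrpl33 (0.65), Mrpl52 (0.63), Mrpl55 (0.37), Mrpl58 (0.55), Mrps18a (0.36), Mrps18b (0.32), Mrps18c (0.60), Timm21 (0.45), Tomm20 (0.47), Tomm34 (0.41) and Tomm6 (0.54). It was below day 1 in Mrpl38 (-0.69), Mrpl57 (-0.67), Mrps11 (-0.36) and Mrps14 (-0.36).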

How the results depend on the processing

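Over 34 alternative settings, of which 20 left out 1 mouse each, 0 results reversed. The median of all features lay within 0.04 of 0 in every comparison. On day 1 the calls of Mrpl18, Mrpl38, Mrpl57, Mrpl58, Mrps18a, Mrps18b, Timm21 and Tomm20 held in all 34, while Mrps18c lost its call in 12 of 33 and Mrps14 in 11 of 34. On day 2 Mrpl38 and Mrps18a held in all 34, and Mrpl28 lost its call in 8 of 25. The count of genes called on day 2 against control, 3 as reported, was 7 with 40 arrays and the mouse as a random block. It was 9 with only the 2 groups in the fit and 9 with quality weights per mouse. Without control mouse 4 and day 1 mouse 1, an alternative chosen after seeing the data, it was 5. In those fits 1136, 1143 and 1425 of 5297 features and 995 of 5192 features passed, against 1018 as reported. The count from day 2 to day 5 was 4 with the first array of each mouse alone, against 7 as reported. There 1014 of 4889 features passed, against 1102 of 5297. The causes were not tested.

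Leaving out 1 mouse at a time gave 16 to 21 genes in the F test, 10 to 16 called on day 1, 2 to 7 on day 2 and 0 on day 5. It gave 5 to 9 between days 1 and 2, 4 to 9 between days 2 and 5, and 13 to 21 between days 1 and 5. Of all features, the same fits called 611 to 1313 on day 1, 592 to 1123 on day 2 and 100 to 161 on day 5. They called 77 to 167 between days 1 and 2, 816 to 1211 between days 2 and 5, and 970 to 1574 between days 1 and 5. The day 2 count of the genes described was 7 without day 1 mouse 1 and 5 without day 1 mouse 2 or day 2 mouse 4. Their count from day 2 to day 5 was 4 without day 2 mouse 1, day 2 mouse 5 or day 5 mouse 2. The mean difference of the members on day 1 lay between -0.24 and -0.18, with -0.21 as reported. With the replicate number as a block, there were 5 calls on day 2 and 12 on day 1, where 979 and 986 of 5297 features passed. Mice of the same number correlated in their deviations by 0.029 on average (-0.391 to 0.330), and mice of other numbers by -0.007. The correlation was over 0.1 in 8 of 30 pairs of the same number, and 8 of 20 mice were most like their own number. No chance value was computed for these counts, so whether the numbers pair the mice stays undecided. Standard errors near 0.13 and blank values limit what can be seen.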

Other observations

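A further 6 members could be compared when values in 2 mice of each group were accepted, and 0 of them passed against control in limma on any day. On day 1 they differed by 0.13 (Mrpl19), -0.25 (Mrpl21), 0.21 (Mrpl49), -0.15 (Mrps25), -0.19 (Mrps28) and 0.04 (Timm8b), with adjusted p values from 0.254 to 0.886.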
